A study of Rattus norvegicus with 12 samples.

Results

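The 10 genes described here encode proteins that assemble or crosslink the extracellular matrix. They are the small leucine-rich proteoglycans lumican (Lum), decorin (Dcn) and biglycan (Bgn), the large proteoglycan versican (Vcan), the glycoproteins fibronectin (Fn1), periostin (Postn) and osteonectin (Sparc), and the lysyl oxidases Lox, Loxl1 and Loxl2. They were chosen by function, by taking every probe set that the platform table assigns to exactly 1 of these symbols. That gave 17 of the 20826 probe sets with a single gene, and 10 of the 14217 genes tested. Vcan had 5 probe sets, Sparc, Lox and Loxl2 had 2 each, and the other 6 genes had 1.

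RNA was measured on 12 single-colour Rat 230 2.0 arrays, 3 in each of 4 groups of adult male Sprague-Dawley rats. Control rats were injected with distilled water. Rats of the other groups were given 70 mg/kg diethylnitrosamine (DEN), a carcinogen activated in hepatocytes, into the peritoneum weekly for 10 weeks. Liver was taken at week 5 (hepatitis) and at weeks 13 to 14 (cirrhosis), and hepatocellular carcinoma (HCC) tissue at weeks 23 to 24, all counted from DEN treatment. If the weeks run from the first injection, week 5 falls within the 10 weeks of dosing. The hepatitis rats had then received fewer injections than the later groups, and injections received cannot be told apart from stage. No sacrifice time is given for the controls in the sources used here, so age and time since injection cannot be told apart from stage. Whether the 3 arrays of a group came from 3 animals is not stated in the labels, so the p-values below reflect the scatter among these samples, part of which may be technical.

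In fibrotic liver the matrix is laid down mainly by activated stellate cells and portal fibroblasts. Lumican and decorin bind collagen fibrils and regulate their diameter, and decorin and biglycan carry chondroitin or dermatan sulfate chains. Versican binds hyaluronan, and fibronectin, which hepatocytes also secrete into plasma, forms a scaffold for other matrix proteins. Periostin and osteonectin are matricellular proteins that bind collagen. Lysyl oxidases oxidise lysines of collagen and elastin, the step that starts covalent crosslinking.

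Of the 10 genes, 4 were called higher in HCC than in both control and cirrhosis: Lum, Vcan, Postn and Loxl1. Calls are defined below. Over all genes 20% were called higher against control and 19.4% against cirrhosis, and the share called in both was not counted. Against cirrhosis only the Lum call held with each array left out in turn. The promoters of these 4 genes are shown because the genes were called higher in both comparisons. The windows run from 250 bases before to 50 after the annotated start (RefSeq, GRCr8). Vcan has a further window that overlaps the one shown. Capitals mark matches, on either strand, to the letters searched for 5 motifs. These were TATAAA for the TATA box, CCAAT for the box of that name, GGGCGG for the GC box, TGANTCA for an AP-1 site and GGAATG for a TEAD site.
Lum promoter, chr7:34245456-34245755, plus strand: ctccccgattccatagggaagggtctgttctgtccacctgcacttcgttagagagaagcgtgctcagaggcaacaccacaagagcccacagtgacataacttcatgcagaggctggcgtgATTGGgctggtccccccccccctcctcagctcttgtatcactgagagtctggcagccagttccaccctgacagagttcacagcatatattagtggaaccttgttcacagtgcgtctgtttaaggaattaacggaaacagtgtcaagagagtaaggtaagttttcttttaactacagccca
Vcan promoter, chr2:22595906-22596205, minus strand: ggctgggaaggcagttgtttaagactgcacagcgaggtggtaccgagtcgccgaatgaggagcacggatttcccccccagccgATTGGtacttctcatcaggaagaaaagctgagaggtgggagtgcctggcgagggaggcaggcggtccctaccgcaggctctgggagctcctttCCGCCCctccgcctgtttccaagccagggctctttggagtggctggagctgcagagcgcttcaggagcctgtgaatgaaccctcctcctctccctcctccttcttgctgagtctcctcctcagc
Postn promoter, chr2:140677811-140678110, plus strand: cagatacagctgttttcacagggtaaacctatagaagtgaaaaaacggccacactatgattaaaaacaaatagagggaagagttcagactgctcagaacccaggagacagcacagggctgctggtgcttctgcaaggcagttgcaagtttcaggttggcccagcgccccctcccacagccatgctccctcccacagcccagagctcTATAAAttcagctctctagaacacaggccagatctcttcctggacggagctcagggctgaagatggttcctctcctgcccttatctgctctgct
Loxl1 promoter, chr8:67612175-67612474, minus strand: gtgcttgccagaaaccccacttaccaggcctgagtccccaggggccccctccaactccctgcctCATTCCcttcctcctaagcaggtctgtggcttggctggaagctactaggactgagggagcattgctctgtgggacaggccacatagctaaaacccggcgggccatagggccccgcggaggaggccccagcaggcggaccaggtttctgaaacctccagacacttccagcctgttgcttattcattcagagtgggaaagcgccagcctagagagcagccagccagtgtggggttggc
The Lum window held 1 match, to the CCAAT box at position -130 from the start site, and the Vcan window held a CCAAT box match at -167 and a GC box match at -74. The Postn window held a TATA box match at -44, and the Loxl1 window a TEAD match at -186. No motif matched in all of the 4 windows, no matches overlapped, and AP-1 matched in none of the 4. Of 33469 promoter windows of this length, 14.2% matched the TATA box, 37.5% the CCAAT box, 33.1% the GC box, 7.33% the AP-1 site and 14.2% the TEAD site. These matches are descriptions of letters and were not tested for binding.

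Values are linear intensities as the authors deposited them, and differences are between means of log2(intensity + 16), which understates changes of dim probe sets. A gene is called higher or lower where limma's moderated 2-sided test, corrected by Benjamini and Hochberg's method across the 14217 genes, gave an adjusted p under 0.05. Errors of intensities are SD, those of log2 differences are SE, and n = 3 per group throughout. Where a gene had several probe sets, the brightest gave its value. Levels of different probe sets are not comparable with each other as amounts of RNA, and brighter or dimmer refers to intensity only. Sums over marker genes can be dominated by bright probe sets and are compared only between arrays.

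The HCC arrays varied most. Across genes, replicates correlated at 0.936 to 0.959 in HCC and at 0.984 to 0.997 in the other groups, and the median SD per gene was 0.207 (log2) in HCC against 0.0724 to 0.104 elsewhere. The 3' minus 5' difference of the Gapdh control probe sets, a sign of RNA quality, was 1.35, 2.43 and 3.14 (log2) on HCC replicates 1, 2 and 3, and 0.38 to 1.02 on the other 9 arrays. The 9 endothelial markers measured summed to an intensity of 713 to 1536 in HCC and 2662 to 3002 in control, and 5 of them fell. The sum leans on Lyve1, Kdr and Stab2, whose means were 897, 637 and 589 in control and 331, 149 and 45 in HCC. Pecam1, Vwf and Erg, at 108, 63.5 and 41.9 in control and 114, 63.5 and 44.7 in HCC, were not called. The 11 hepatocyte markers summed to 40323 to 60487 in HCC and 65787 to 69123 in control. The 10 macrophage markers summed to 2245 to 3158 in HCC and 5076 to 11540 in control. In HCC 5 of them fell, as did 18.7% of all genes. Of 10 proliferation markers 8 rose in HCC, as did 20% of all genes. Their sums were 4057, 1514 and 3082 on HCC replicates 1, 2 and 3 and 877 to 1307 in control. In such whole-tissue RNA, fewer cells of a type and less RNA per cell cannot be told apart. The part of RNA quality, proliferation and cell make-up in the results below was not tested.

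In HCC, 6 of the 10 genes rose and 1 fell against control. Lum, Dcn, Vcan, Postn, Lox and Loxl1 rose, and Sparc fell. That is 7 called of 10, where 38.8% of all genes were called, 20% higher and 18.7% lower. All 3 HCC arrays lay above all 3 controls in 7 genes, the 6 risen and Bgn, and below them in 1, against 24.1% and 22.5% of all genes. At the earlier stages 0 of the 10 were called in limma's test, where 4% of all genes were called in hepatitis (1.87% higher, 2.12% lower) and 3.33% in cirrhosis (1.54% higher, 1.79% lower). At an unadjusted p under 0.05 there were 4 of 10 in hepatitis and 5 of 10 in cirrhosis, where 17.3% and 16.3% of all genes lay under it. With array weights limma called 3 and 6 of the 10, beside 15.2% and 21.7% of all genes. With only the 2 groups of a comparison fitted it called 1 and 7, beside 6.3% and 18.9% of all genes, and in HCC 3 (Lum and Loxl1 higher, Sparc lower), beside 22.6%.

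**Figure D1:**
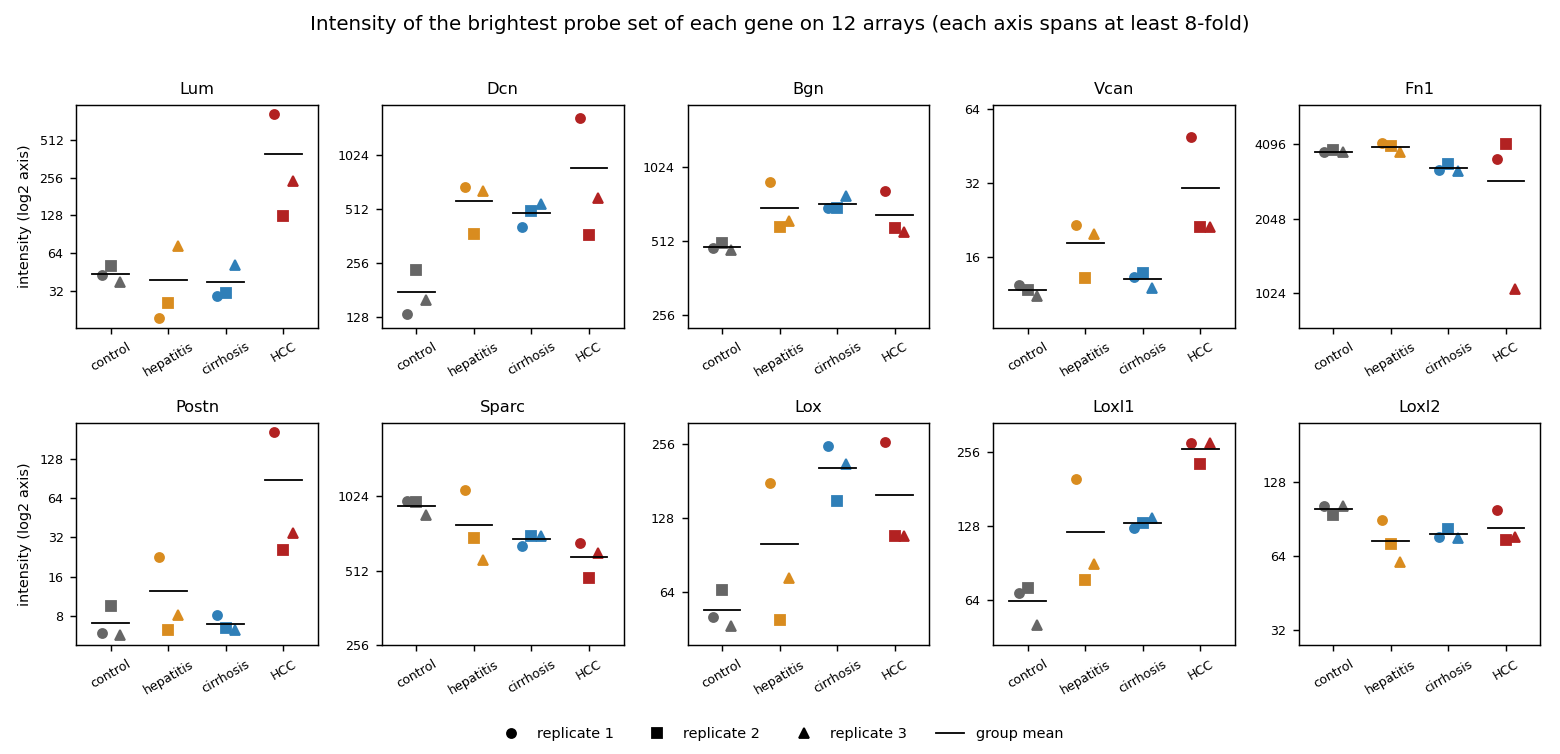
Intensity (log2 axis) of the brightest probe set of each gene in control, hepatitis, cirrhosis and HCC. Symbols are the 3 replicates and lines the group means; all HCC arrays of Lum, Postn and Loxl1 lie above the other 9, and Dcn lies above control at all 3 stages.

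Lum, which regulates collagen fibril spacing, overlapped with control until HCC. Its intensity was 42.8, 50.4 and 37.4 in control and 19.2, 25.2 and 72.3 in hepatitis. It was 29.1, 30.8 and 51.6 in cirrhosis and 830, 127 and 242 on HCC replicates 1, 2 and 3. Every HCC array lay above every other array, while hepatitis and cirrhosis overlapped with control. Lum rose by 2.41 ± 0.57 (log2) against control, a 5.31-fold change on that scale (limma adjusted p = 0.00789), and by 2.59 ± 0.57 against cirrhosis (adjusted p = 0.00558). HCC replicate 1 carried much of the size: without it the difference from control was 1.70, and the call held with each of the 12 arrays left out in turn.

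Dcn, the fibril-binding proteoglycan that also binds TGF beta, differed from Lum in that its intensity was high already in hepatitis. It was 132, 234 and 158 in control, 682, 372 and 642 in hepatitis, 407, 501 and 544 in cirrhosis, and 1640, 363 and 592 in HCC. At each stage the lowest array lay above the highest control. Differences from control were 1.60 ± 0.47 in hepatitis, 1.42 ± 0.47 in cirrhosis and 1.96 ± 0.47 in HCC. The limma adjusted p-values were 0.0981, 0.153 and 0.00841, so only the HCC difference was called. The 3 stages overlapped with each other, and HCC minus cirrhosis was 0.55 (95% interval -0.50 to 1.59), or -0.05 without HCC replicate 1. When only the 2 groups compared were fitted, the hepatitis and cirrhosis differences were called (adjusted p = 0.0387 and 0.0062) and the HCC difference was not (adjusted p = 0.0582). The hepatitis difference was also called without HCC replicate 1 or 2 (adjusted p = 0.0127 and 0.0367), and the cirrhosis difference without HCC replicate 1 (0.0247).

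Bgn, the close relative of Dcn, lay above control on all 9 arrays of DEN-treated rats. Its intensity was 480, 501 and 471 in control, 886, 585 and 618 in hepatitis, 695, 695 and 777 in cirrhosis, and 821, 578 and 556 in HCC. The differences from control were 0.49 ± 0.17, 0.56 ± 0.17 and 0.40 ± 0.17 in order of stage, and none was called (limma adjusted p = 0.165, 0.124 and 0.0953). Single arrays moved them: without hepatitis replicate 1 the hepatitis difference was 0.30, and without HCC replicate 1 the HCC difference was 0.22, while with any 1 array left out cirrhosis stayed at 0.51 to 0.59. With quantile normalization the HCC difference was 0.63 (adjusted p = 0.0104), and without hepatitis replicate 1 its adjusted p was 0.044. Without HCC replicate 1 the cirrhosis difference had an adjusted p of 0.0448, and with only control and cirrhosis fitted it was 0.00264.

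Vcan, the hyaluronan-binding proteoglycan of provisional matrix, was dim on every probe set. The brightest read 12.3, 11.8 and 11.2 in control, 21.5, 13.2 and 19.8 in hepatitis, 13.3, 13.8 and 12.0 in cirrhosis, and 49.1, 21.2 and 21.3 in HCC. The HCC arrays lay above control and cirrhosis but overlapped with hepatitis. Vcan rose by 0.69 ± 0.19 against control (limma adjusted p = 0.017) and by 0.63 ± 0.19 against cirrhosis (adjusted p = 0.027). Without HCC replicate 1 these were 0.42 and 0.36, both still called. The call against cirrhosis ended without cirrhosis replicate 1, 2 or 3 (adjusted p = 0.0665, 0.0613 and 0.0778), and both ended with only the 2 groups fitted (0.0864 against control, 0.106 against cirrhosis). With 1 added in place of 16 the rise against control was 1.19 and with 64 it was 0.31, both called (0.00642 and 0.0335). All 5 probe sets had their 3 HCC arrays above the 3 controls. In the fit of all 31042 probe sets, in which 29.8% were called in HCC against control, 3 of the 5 were called higher, at 0.69, 0.56 and 0.19. Probe sets of a gene read the same RNA on each array and are not replicates.

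Postn, a matricellular protein associated with activated fibroblasts, was near the bottom of the range outside HCC. Its intensity was 5.88, 9.58 and 5.69 in control, 22.7, 6.28 and 8.10 in hepatitis, and 8.16, 6.49 and 6.26 in cirrhosis. On HCC replicates 1, 2 and 3 it was 203, 25.6 and 34.6. The HCC arrays lay above the other 9, the nearest being hepatitis replicate 1. Postn rose by 1.75 ± 0.51 against control (limma adjusted p = 0.0223) and by 1.75 ± 0.51 against cirrhosis (adjusted p = 0.0228). Without HCC replicate 1 both differences were 1.00, still called. The call against control ended without control replicate 1, 2 or 3 (adjusted p = 0.0612, 0.0502 and 0.0594), and that against cirrhosis without cirrhosis replicate 1, 2 or 3 (0.0557, 0.0618 and 0.0628). With 64 added in place of 16 both differences were 0.91 and not called (adjusted p = 0.0635 and 0.0652), and with 1 added they were 2.88 and 2.87 and called (0.00555 and 0.0058). With only the 2 groups fitted neither was called (0.106 and 0.101).

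Fn1, secreted by hepatocytes and fibroblasts alike, was bright and stood apart on a single HCC array. The controls read 3805, 3878 and 3802, the hepatitis arrays 4144, 4054 and 3833, and the cirrhosis arrays 3223, 3406 and 3200. HCC replicates 1, 2 and 3 read 3559, 4122 and 1058, so the low HCC mean rests on replicate 3. No difference was called (HCC minus control -0.61 ± 0.40, limma adjusted p = 0.259), and without HCC replicate 3 it was 0.00. HCC minus cirrhosis was -0.39 ± 0.40, and without HCC replicate 3 it turned to 0.22 and was called (adjusted p = 0.0401). On HCC replicates 1, 2 and 3 the hepatocyte marker sums were 40965, 60487 and 40323. The Gapdh 3' minus 5' differences were 1.35, 2.43 and 3.14 on the same arrays. The part of either in the Fn1 values was not tested. All 3 cirrhosis arrays lay below all 3 controls, at -0.22 ± 0.40 (adjusted p = 0.89). That SE is shared by all groups, and the SD of Fn1 was 0.02 (log2) in control, 0.05 in cirrhosis and 1.07 in HCC. With only cirrhosis and control fitted, Fn1 was called lower (limma adjusted p = 0.0213).

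Sparc, the collagen-binding glycoprotein osteonectin, was the member that fell, on its brightest probe set. That probe set read 980, 972 and 862 in control, 1088, 691 and 567 in hepatitis, 642, 706 and 706 in cirrhosis, and 660, 478 and 602 in HCC. Sparc fell by 0.69 ± 0.20 in HCC against control (limma adjusted p = 0.0231). Its second, dimmer probe set did not show this. It read 267, 263 and 203 in control, 255, 167 and 162 in hepatitis, 141, 152 and 151 in cirrhosis, and 262, 223 and 326 in HCC.

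On that second probe set HCC minus control was 0.13 ± 0.18 (95% interval -0.27 to 0.54), and it rose by 0.79 ± 0.18 against cirrhosis (limma adjusted p = 0.00836 over all probe sets, of which 32.2% were called in that comparison). On the brightest probe set HCC minus cirrhosis was -0.24 ± 0.20 (adjusted p = 0.386). Both probe sets had all 3 cirrhosis arrays below all 3 controls, by -0.44 ± 0.20 and -0.66 ± 0.18, neither of them called (adjusted p = 0.323 over genes and 0.0838 over probe sets). With the mean of both probe sets the HCC difference was -0.28 (adjusted p = 0.269), and with quantile normalization -0.41 (adjusted p = 0.147). The call also ended without control replicate 1 or 2 or HCC replicate 2 (adjusted p = 0.0682, 0.0681 and 0.0641), and with array weights (0.0782). The direction of Sparc in HCC is therefore not settled by these probe sets.

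**Figure D2:**
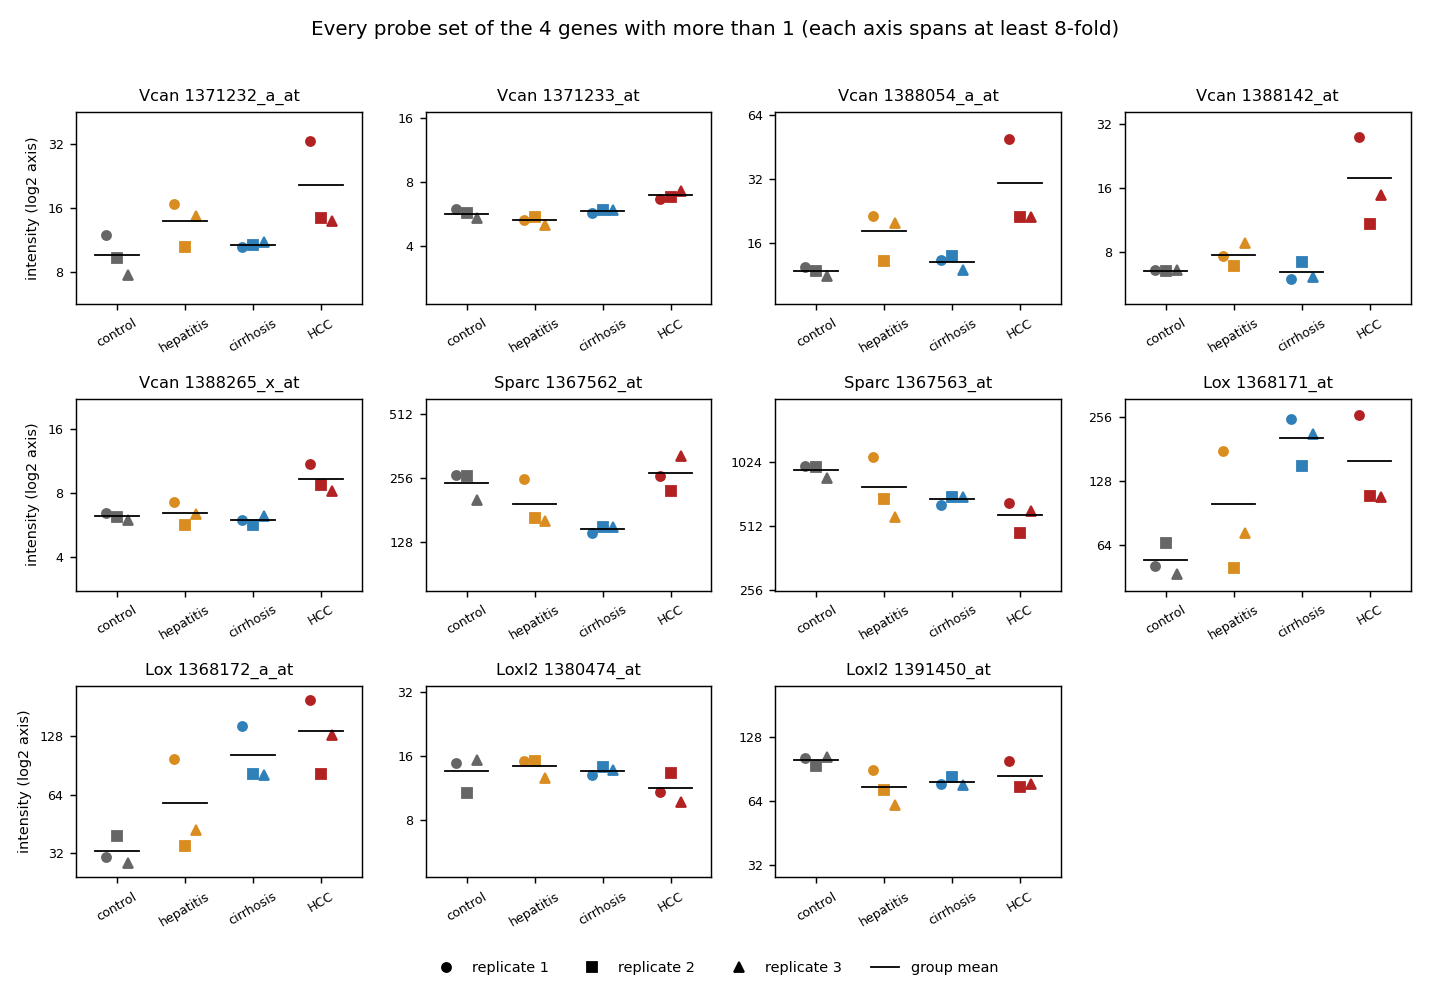
Intensity (log2 axis) of all 11 probe sets of Vcan, Sparc, Lox and Loxl2 on the 12 arrays, with group means as lines. Both Sparc probe sets lie below control in cirrhosis and part in HCC, where the dimmer averages 271 and the brighter 580, against 244 and 938 in control.

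Loxl1, the lysyl oxidase tied to elastic fibre assembly, had the smallest adjusted p of the 10 genes. Its intensity was 68.6, 71.7 and 50.9 in control, 199, 77.2 and 89.7 in hepatitis, 126, 132 and 138 in cirrhosis, and 279, 229 and 279 in HCC. The HCC arrays lay above all others, and every array of the 3 DEN groups lay above every control. Loxl1 rose by 1.81 ± 0.26 in HCC against control, a 3.5-fold change (limma adjusted p = 0.000649), and the call held with each array left out in turn. It rose by 0.91 ± 0.26 against cirrhosis (adjusted p = 0.0214). That call ended without HCC replicate 1 or 3 (adjusted p = 0.0527 and 0.06) or without cirrhosis replicate 1, 2 or 3 (0.0633, 0.0575 and 0.0506), and with array weights (0.0922). Its hepatitis and cirrhosis differences, 0.70 ± 0.26 and 0.90 ± 0.26, were not called (adjusted p = 0.196 and 0.107), although without hepatitis replicate 1 the latter was (0.00718).

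Lox, the family's founding enzyme, had its highest mean in cirrhosis on its brightest probe set and in HCC on its second. Its brightest probe set read 50.7, 65.4 and 46.7 in control, 177, 49.5 and 72.9 in hepatitis, 250, 150 and 212 in cirrhosis, and 260, 108 and 108 in HCC. The cirrhosis and HCC arrays lay above all controls, and hepatitis overlapped with them. The cirrhosis difference was 1.63 ± 0.41 (3.09-fold, limma adjusted p = 0.0693), just short of a call, and in HCC Lox rose by 1.21 ± 0.41 (adjusted p = 0.0417). The cirrhosis difference was called without hepatitis replicate 1 (adjusted p = 0.0336) and without HCC replicate 1 (0.0313). The second probe set read 30.4 to 39.0 in control, 80.9 to 144 in cirrhosis (mean 102) and 81.8 to 197 in HCC (mean 136). In the fit of all 31042 probe sets it gave 1.25 ± 0.36 in cirrhosis (adjusted p = 0.096) and rose by 1.58 ± 0.36 in HCC (adjusted p = 0.00866), while the brightest probe set, at 1.21 in HCC, was not called there (adjusted p = 0.0535).

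The Lox call in HCC held in 4 of the 12 fits that each left out 1 array. It ended without control replicate 1, 2 or 3 (adjusted p = 0.1, 0.0692 and 0.106), hepatitis replicate 3 (0.0535), cirrhosis replicate 1, 2 or 3 (0.0545, 0.0513 and 0.0591) or HCC replicate 1 (0.128). It also ended with array weights (0.204), with 64 added (a difference of 0.85, 0.0631) and with only the 2 groups fitted (0.0558).

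Loxl2, which crosslinks basement membrane collagen, was the lysyl oxidase that did not rise. Its brighter probe set read 102, 93.7 and 102 in control, 89.5, 71.5 and 60.9 in hepatitis, 76.8, 82.9 and 75.8 in cirrhosis, and 98.9, 74.6 and 76.7 in HCC. Hepatitis and cirrhosis lay below control without overlap. The differences were -0.37 ± 0.12, -0.29 ± 0.12 and -0.22 ± 0.12 in order of stage, none of them called (limma adjusted p = 0.134, 0.27 and 0.178). Without HCC replicate 1 the HCC difference was -0.33 and was called lower (adjusted p = 0.0479). With array weights the hepatitis difference was called lower (adjusted p = 0.0358). The cirrhosis difference was called lower with array weights and with only the 2 groups fitted (lowest adjusted p = 0.0171). The other Loxl2 probe set stayed between 9.69 and 15.3 on all 12 arrays.

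**Figure D3:**
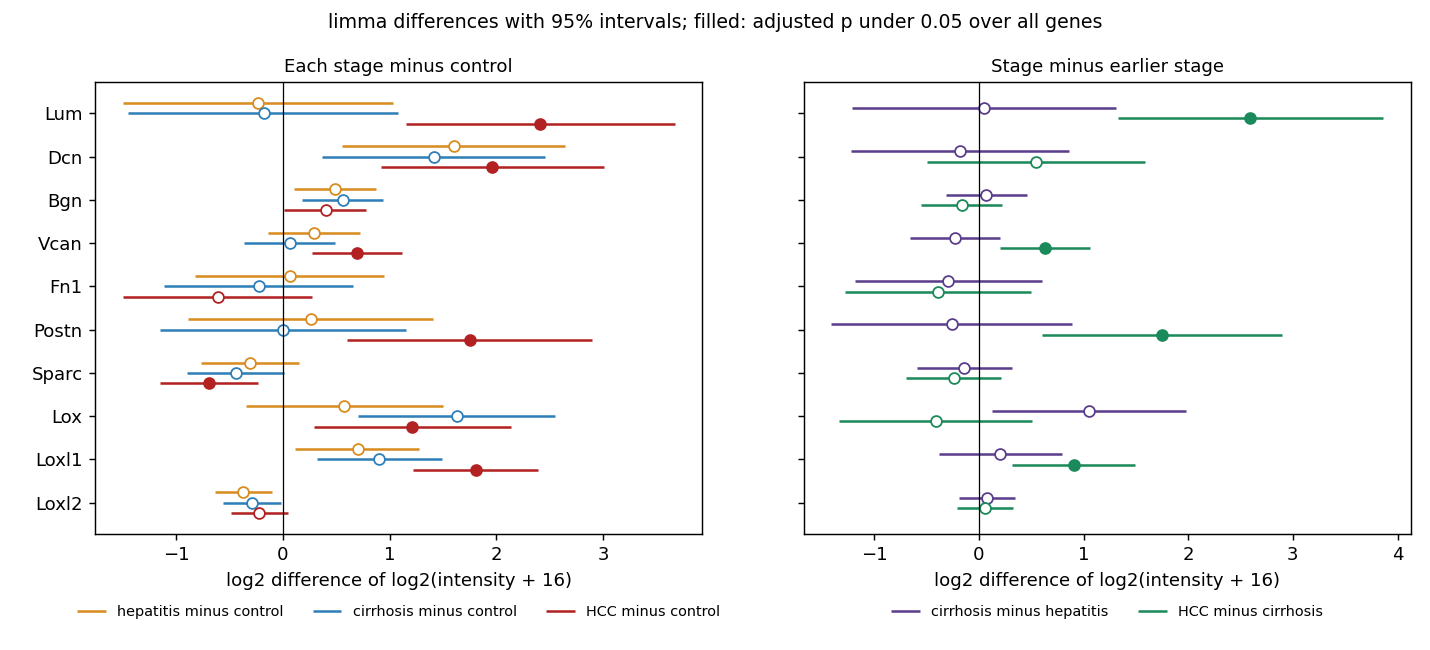
Differences between group means of log2(intensity + 16) with 95% intervals from limma, each stage minus control (left) and minus an earlier stage (right). Filled points are called; in HCC minus control 7 are filled, and in hepatitis, in cirrhosis and in cirrhosis minus hepatitis none.

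Compared as a set, the 10 genes had a median log2 difference from control of 0.28 in hepatitis, 0.03 in cirrhosis and 0.95 in HCC, where all genes had medians of 0.00, 0.00 and 0.01. In hepatitis 4 of 10 had arrays wholly above control and 1 below, against 15.1% and 15.6% of all genes. The 4 were Dcn, Bgn, Vcan and Loxl1, and the 1 was Loxl2. In cirrhosis 4 of 10 lay wholly above and 3 below, against 18.1% and 19.3%. The 4 in cirrhosis were Dcn, Bgn, Lox and Loxl1, and the 3 were Fn1, Sparc and Loxl2. These same 7 genes were called, 4 higher and 3 lower, when only cirrhosis and control were fitted, where 2682 genes were called in place of 474.

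Between the stages, 0 of 10 were called in cirrhosis against hepatitis (0.957% of all genes, 0.394% higher and 0.563% lower), with 1 at an unadjusted p under 0.05, as had 11.4% of all genes. That 1 was Lox, at 1.05 ± 0.41 (limma adjusted p = 0.352). Array weights and the fit of only these 2 groups also called 0, beside 6.79% and 3.21% of all genes. None of the 10 lay wholly above hepatitis in cirrhosis and 1, Fn1, lay wholly below, against 13.1% and 13.7% of all genes. In HCC against cirrhosis 4 of 10 rose and 0 fell, where 37.1% of all genes were called, 19.4% higher and 17.7% lower. With only these 2 groups fitted 2 of 10 rose, Lum and Loxl1, beside 24.7% of all genes called. The HCC arrays of these 4 lay wholly above cirrhosis, and those of none of the 10 lay below, against 24.1% and 22.9% of all genes. A moderated F test over the stages called Lum, Dcn, Vcan, Postn, Lox and Loxl1, 6 of 10, where it called 40.4% of all genes. HCC against control and HCC against cirrhosis share the HCC arrays, and the 3 comparisons with control share the controls.

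Within control, hepatitis and HCC most of the genes shared their highest array, and within cirrhosis they did not. HCC replicate 1 was the highest HCC array in 8 of 10 genes, the exceptions being Fn1 and Loxl1. Hepatitis replicate 1 was the highest hepatitis array in 9 of 10, the exception being Lum. Control replicate 2 was the highest control in 7 of 10 and control replicate 3 the lowest in 8 of 10. Cirrhosis replicates 1, 2 and 3 were highest in 2, 3 and 5 genes and lowest in 4, 2 and 4. How often each array was highest over all genes was not counted. The genes of an array share its RNA, so these counts are descriptions. HCC replicate 1 also had a cholangiocyte marker sum of 5963 over 6 measured markers, against 387 and 1137 on HCC replicates 2 and 3 and 257 to 280 in control. Hepatitis replicate 1 had 1070, against 366 and 355 on the other hepatitis arrays, and cirrhosis had 617 to 710. Their part in the ordering was not tested.

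Control replicate 2 stood apart in 10 skeletal muscle markers, whose mean log2 level was 7.49 on it, 5.29 and 5.37 on the other controls and 5.28 to 5.39 on the other 9 arrays. Their summed intensity was 3666 on it and 1623 and 1447 on the other controls. Without control replicate 2, limma called 4 of the 10 genes in HCC against control, Lum at 2.49, Dcn at 2.17, Vcan at 0.69 and Loxl1 at 1.88. Postn, Lox and Sparc, at 1.83, 1.32 and -0.66, then missed the threshold (limma adjusted p = 0.0502, 0.0692 and 0.0681). That fit called 4195 of all genes, in place of 5512. The lower count was not particular to this array. Leaving out control replicate 1 gave 4 of the 10 (4421 of all genes), and leaving out control replicate 3 gave 5 (4696).

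The 14 markers of stellate cells and myofibroblasts summed to 1297 to 1442 in control, 1569 to 1942 in hepatitis, 1421 to 1601 in cirrhosis, and 1584, 1931 and 1092 on HCC replicates 1, 2 and 3. Their mean log2 level, which bright markers dominate less, was 6.37, 6.27 and 6.07 on those HCC arrays and 6.72, 6.50 and 6.57 on hepatitis replicates 1, 2 and 3, while the controls ran from 6.19 to 6.27. In HCC 3 of the 14 rose and 3 fell, where 38.8% of all genes were called. Cygb rose by 1.14, the smooth muscle actin gene Acta2 by 0.65 and the PDGF receptor Pdgfrb by 0.46. Lrat, the retinyl ester enzyme of quiescent stellate cells, fell by 2.74, the transcription factor Tcf21 by 0.52 and the growth factor Hgf by 0.35. In hepatitis 4 of the 14 were called higher and in cirrhosis 3, beside 1.87% and 1.54% of all genes. Ngfr and Cnn1 had group means under 16 in all 4 groups. Markers of portal fibroblasts and mesothelium, 8 measured, summed to 979 on HCC replicate 1, 498 and 397 on the other HCC arrays and 301 to 428 in control. The part of these cells in the differences was not tested.

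Among 20 other leucine-rich and hyaluronan-binding proteoglycans the calls went both ways. In cirrhosis the leucine-rich genes Ogn, Aspn and Omd rose by 0.98, 0.90 and 0.66, and perlecan (Hspg2) fell by 0.49, which makes 3 higher and 1 lower. In HCC 2 rose and 4 fell, with Omd at -1.58, Ogn at -0.72, agrin (Agrn) at 1.23 and Hspg2 at 0.80. In hepatitis the link protein gene Hapln3 alone rose, by 2.18 ± 0.25 (limma adjusted p = 0.00187). The list's median differences were 0.00, 0.04 and -0.03 in order of stage. Over all genes 4%, 3.33% and 38.8% were called in that order, in HCC 20% higher and 18.7% lower.

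Of 59 other matrix glycoproteins, 2 rose in hepatitis, 4 in cirrhosis and 13 in HCC, where 10 also fell, with list medians of 0.05, 0.04 and 0.10. Over all genes 1.87%, 1.54% and 20% were called higher at those stages, and 18.7% were called lower in HCC. The laminin chain Lama5 rose by 2.48 in hepatitis and 1.88 in HCC. In cirrhosis Smoc2, a relative of Sparc, rose by 1.31 and the microfibril gene Mfap4 by 1.19. In HCC the plasma protein vitronectin (Vtn) fell by 1.76, Ecm1 by 1.82 and Tgfbi by 1.61.

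Of 15 collagen processing and crosslinking genes 3 rose and 2 fell in HCC, with a median of 0.07, a share called below the 38.8% of all genes. The lysyl hydroxylase Plod2, which makes the hydroxylysines used in crosslinks, rose by 1.68 ± 0.32 (limma adjusted p = 0.00291), the prolyl hydroxylase P4ha1 by 0.85 and the collagen chaperone Fkbp10 by 0.69, while the lysyl hydroxylase Plod1 fell by 0.48. Of 15 collagens 5 rose and 2 fell, with a median of 0.47. Col1a1 rose by 1.37 and Col4a2 by 1.17, while Col14a1 fell by 1.49 and Col18a1 by 1.16. In cirrhosis 1 of the 15 was called, Col5a1, which fell by 0.83, where 3.33% of all genes were called. Of 19 genes for chondroitin and dermatan sulfate synthesis, the chains of these proteoglycans, 6 rose and 4 fell in HCC, with a median of -0.02. Over all genes 20% were called higher and 18.7% lower in this comparison. Ugdh, which makes UDP-glucuronate, rose by 1.00 in HCC and fell by 0.73 in hepatitis. The sulfate donor synthases went apart in HCC, where Papss1 rose by 0.86 and Papss2 fell by 1.50, and the chain-starting enzyme Csgalnact1 fell by 0.73.

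Receptors of these proteins were mostly lower where called in HCC. Of 21 measured, 3 rose and 8 fell in HCC, with a median of 0.01, where 20% of all genes were called higher and 18.7% lower. The hyaluronan scavenger receptor Stab2 of sinusoidal endothelium fell by 3.53, the endocytic receptor Lrp1 by 1.98 and syndecan-2 (Sdc2) by 1.85, while the collagen receptor Ddr1 rose by 1.17. In hepatitis the integrins Itga9 and Itgav rose by 0.65 and 0.55, and in cirrhosis the scavenger receptor Stab1 fell by 0.90, Lrp1 fell by 0.81 and the collagen receptor Ddr2 rose by 0.55. Of 7 genes for hyaluronan synthesis or versican cleavage 2 rose and 2 fell in HCC, beside the same shares of all genes, with a median of 0.07. The versican-cleaving proteases Adamts4 and Adamts5 rose by 0.60 and 0.53, and Adamts1 and Adamts9 fell by 1.15 and 0.48.

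**Figure D4:**
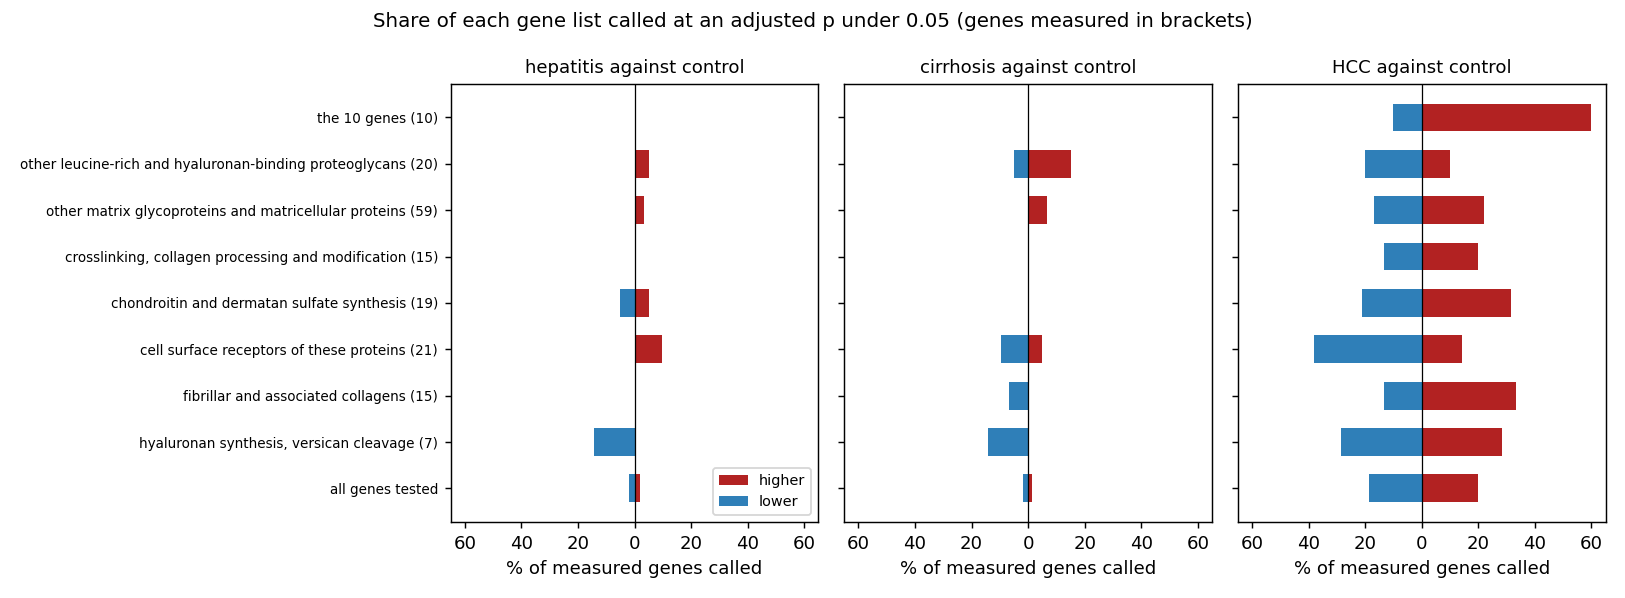
Percent of measured genes called higher (right) and lower (left) in each list, for each stage against control, with all genes tested at the bottom. In HCC the 10 genes show 60% higher and 10% lower, against 20% and 18.7% of all genes.

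Among 7767 other genes of mean intensity 64 or more, the nearest in profile to each called member was found by the root mean square difference between centred log2 profiles over the 12 arrays. For Loxl1 this was the myosin gene Myh10 at 0.17, against a median of 0.76 over those genes, and for Dcn it was Fhl2 at 0.26 and Gsn (gelsolin) at 0.34, against 0.94. For Lox it was Anxa5 at 0.34 and matrix Gla protein (Mgp) at 0.35, against 0.83. For Postn it was Dab2 at 0.26 and Adgrg1 at 0.27, against 0.94, and for Lum Apeg3 at 0.43 and Morc4 at 0.44, against 1.29. For Sparc it was Plpp6 at 0.19 and Lama2 at 0.20, against 0.46, and for Vcan Ppp1r14b and Odc1, both at 0.10, against 0.43. The nearest of Loxl1 after Myh10 was Ywhah at 0.26. The nearest of 7767 genes lies below their median by construction, so the medians give a scale only and nothing was tested.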

How the data were processed

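The submitters deposited 1 linear intensity for each probe set and array, from biotin-labelled total RNA extracted with TRIzol, per the labels' protocols. MAS5 and RMA stand in the submitters' processing notes, but no source used here says which of them gave the intensities. Array medians lay between 28.69 and 30.94, with 33.9% to 35.8% of values below 16. Precision is limited by the number of arrays. All 12 columns were used and 0 left out.

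Of 31099 probe sets, 57 were array controls, 20826 had 1 gene, 436 several and 9780 none in the platform annotation. Symbols were matched to RefSeq genes of GRCr8 by gene ID, with 68 probe sets not found and kept as annotated. Each of 14217 genes was represented by its brightest probe set. The log2 of the deposited value + 16 was fitted with lmFit and eBayes (limma 3.58.1, R 4.3.3), with all groups sharing 1 spread per gene (prior degrees of freedom 1.8). The fit was tested on simulated data. Figures used Python 3.11.15 and matplotlib 3.10.9.

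The members and lists were chosen with earlier results of these data known. All 10 members are named. Of each other matrix list up to 4 called genes are named, the first by absolute difference, with 2 nearest genes per called member. The stellate markers called in HCC are all named, which was decided after their values were seen. The alternatives were other added values (1 and 64), a filter on dim genes, all probe sets or their mean, quantile normalization, eBayes with trend and robust settings, array weights, fits of only 2 groups, a replicate block, and each array left out. No protein sequences are shown, and 5 of the 10 members had a RefSeq promoter entry.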

Additional observations from a re-analysis of the deposited data

How the results depend on the processing

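The number of members called in HCC against control was 7 in the reported fit, 3 with only the 2 groups fitted, and 4 to 8 with each array left out. In HCC against cirrhosis it was 4, then 2 with the dimmest 30% of genes left out (which removes Vcan and Postn), 2 with only the 2 groups, and 1 to 4 with each array left out. The counts of 0 in hepatitis and cirrhosis became 3 and 6 with array weights, which weight the HCC arrays at 0.227 to 0.362, and 1 and 7 with only the 2 groups. In cirrhosis 1 member, Lox, was called with the dimmest 30% of genes left out (adjusted p = 0.0475), and 1, also Lox, with the replicate block (0.0478). With each array left out these counts were 0 to 1 in hepatitis, 0 to 3 in cirrhosis, and 0 throughout in cirrhosis against hepatitis. The F test called 6, then 3 with 64 added, and 2 to 7 with each array left out.

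Counts of all genes also moved. They were 568 in hepatitis, 474 in cirrhosis, 136 in cirrhosis against hepatitis, 5512 in HCC against control and 5278 in HCC against cirrhosis. With array weights the first 3 were 2159, 3080 and 966. With only the 2 groups fitted the 5 were 896, 2682, 457, 3210 and 3507, and with the replicate block cirrhosis had 310 and cirrhosis against hepatitis 75. With each array left out they were 180 to 1078 in hepatitis, 98 to 883 in cirrhosis and 39 to 333 in cirrhosis against hepatitis. In HCC they were then 4195 to 6338 against control and 4129 to 6190 against cirrhosis. With the dimmest 30% of genes left out, 4867 were called in HCC against cirrhosis and 395 in cirrhosis against control. The F test was counted over all genes in the reported fit only.

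Signs turned in differences that were not called. In HCC against cirrhosis, with the mean of all probe sets Sparc was 0.27 (from -0.24) and Loxl2 -0.03 (from 0.06), with quantile normalization Bgn was 0.09 (from -0.16) and Loxl2 -0.03, and with each array left out Dcn ran from -0.05 to 1.02, Loxl2 from -0.04 to 0.13 and Fn1 from -0.75 to 0.22, the last, without HCC replicate 3, called. Lum in hepatitis against control ran from -0.64 to 0.02. In cirrhosis against hepatitis Lum ran from -0.21 to 0.46, Bgn from -0.04 to 0.26, Sparc from -0.34 to 0.13, Loxl1 from -0.03 to 0.57 and Loxl2 from -0.02 to 0.20. The cause was not tested. Same-numbered arrays of different groups correlated at -0.25 to 0.36 in their deviations from group means, and differently numbered arrays at -0.32 to 0.20. Deviations of 3 arrays from their own mean depend on each other, so these values cannot settle whether the replicate numbers pair the samples. The replicate block changed no other member's call in any comparison.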
